A study of Mus musculus with 87 samples.

Results

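The comparison described here asked what Dux removal did to the transcriptome of mouse embryonic stem cells (mESCs) that already lacked the Obox4 cluster. By the study's account an intact Obox4 copy outside this cluster was kept. It used 6 of the 87 samples of the series, chosen by their labels: 3 RNA-seq libraries of double KO mESCs and 3 of Obox4 KO mESCs. Both lines descend from EB3, an mESC line of 129/Ola origin, and both were grown in pladienolide B (PlaB), which blocks the splicing factor SF3B and moves mESCs towards a totipotent blastomere-like state. The Obox4 KO line was cut with Cas9 in and around the Obox4 cluster. The double KO line was made from Obox4 knockout cells with 2 guides that flank the Dux cluster. Whether those cells were the Obox4 KO clone compared here is not given in the sources used here. The lines were grown from single cells, so the Dux deletion and the history of a clone cannot be told apart. The labels number the replicates and do not say whether they were separate cultures, so p-values measure only the spread between these libraries. WT and Dux KO mESCs in PlaB, 3 libraries each, gave the same deletion with Obox4 present.

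Dux is a homeobox gene present in many copies in a tandem array, and it is transcribed briefly around zygotic genome activation. Its protein binds the long terminal repeat MT2_Mm of the endogenous retrovirus MERVL and the promoters of genes of the 2-cell (2C) stage, among them the Zscan4 cluster, whose products act at telomeres and heterochromatin. Obox4 belongs to another multicopy homeobox family that is active at the same stage. In mESC cultures these genes are mostly silent outside a rare 2C-like state.

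The libraries were not alike in quality. Summed counts over the genes tested were 14276606 to 40385240 in double KO, 32475871 to 42889539 in Obox4 KO, 43540931 to 48802872 in Dux KO and 33477195 to 38835669 in WT, with the lowest value in double KO replicate 3. Of the 6 libraries compared, 2 stood apart from their group. In Obox4 KO replicate 3, 257 genes lay at least 4-fold from the mean of the other 2 libraries, 224 of them higher, and in double KO replicate 3 the number was 118, with 20 higher. Obox4 KO replicates 1 and 2 had 0 genes 4-fold apart. Of the 224 genes raised in Obox4 KO replicate 3, 125 were also at least 4-fold above Obox4 KO replicates 1 and 2 in all 3 double KO libraries. Over all 22328 genes tested, 195 were that far above in all 3 double KO libraries. Of these 195, 192 were at least 2-fold above Obox4 KO replicates 1 and 2 in Obox4 KO replicate 3 as well. Counts over gene lists are therefore given with all libraries and without Obox4 KO replicate 3. The mESC markers Pou5f1, Nanog, Sox2, Zfp42, Esrrb, Klf4 and Dppa5a were all read in every library, with a summed level of 1830 to 2400 CPM (counts scaled to library depth) in double KO, 1940 to 2640 in Obox4 KO and 3760 to 3880 in WT. Fibroblast feeder markers summed to 13.0 to 34.3 CPM and blood markers to at most 0.704 CPM in the 6 libraries.

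The guides and the reads between them check the labels, and their sequences are shown because they set the borders of what was deleted. Lower case marks the protospacer and capitals the PAM, both read 5′ to 3′. In GRCm38, Dux_KO_A lies at chr10:58254150-58254169 on the plus strand and Dux_KO_B at chr10:57848850-57848869 on the minus strand.
Dux_KO_A: aaggcacacagccgcttgctGGG
Dux_KO_B: gactttccccactagtggctTGG
The guides enclose 405.3 kb that hold 5 annotated genes of the array, namely AW822073, Gm10807, Duxf3 (chr10:58229979-58232675, minus strand), Gm4981 and Gm19459. All 5 had reads in Obox4 KO, and the 6 libraries of the lines with the Dux deletion had 0 reads in any of them. Summed over the 5 genes, Obox4 KO held 9.03, 9.71 and 14.4 CPM (11.1 ± 2.93, SD, n = 3) and WT held 16.1, 15.1 and 14.2 CPM. The array was lower in double KO and the groups did not overlap (exact two-sided permutation test p = 0.1, the smallest that 3 against 3 libraries allow). Against the limit set by 3 counts over the double KO libraries (0.037 CPM) it was at least 299-fold lower. Most low counts were even, as when both mates of a pair are counted, so this bound and those below can be too high.

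Both lines were labelled as Obox4 knockouts. The study's guide table holds 2 Obox4 guides, and its methods name the plasmids used on the mESCs by other numbers, so whether these guides cut these lines is not given in the sources used here. They are shown only to sort the annotated copies by an exact match, with capitals marking the PAM.
Obox4_KO_8: ggaagagctgtacccctagaGGG
Obox4_KO_10: gagaaggaacaatgtgcctaTGG
With an NGG PAM the first matched 15 sites and the second 1, between chr7:15140215 and chr7:15509713 in GRCm38. Of 39 annotated Obox4 copies, 15 contained a match. These 15 had 257, 255 and 282 reads in WT, 0 in each double KO library, 0, 0 and 24 in Obox4 KO, and 2, 2 and 2 in Dux KO, in which Obox4 was not targeted. Since the reads were also nearly gone in Dux KO, their absence in double KO does not check the Obox4 genotype. The 24 reads in Obox4 KO replicate 3 were all in Obox4-ps18, at 0.727 CPM, within the 1.23, 0.483 and 1.12 CPM of the same copy in WT, so the reads of this copy went against the label of that library. Obox4-ps16, the most read of the 15 in WT at 2.92, 2.95 and 3.77 CPM, had none in any Obox4 KO library. Of the 24 copies without a match, 8 had reads in Obox4 KO and 11 in WT. In sum the 24 held 4.68, 3.64 and 11.2 CPM in Obox4 KO and 0.192, 0 and 0.186 CPM in double KO. Among them was Obox4-ps33, the intact copy outside the cluster that the study targeted. It had 1.88, 1.16 and 4.42 CPM in Obox4 KO and no read in double KO or Dux KO. In double KO against Obox4 KO it was called lower (edgeR adjusted p = 0.0012). Obox6, a homeobox gene at the far end of the family's region, fell from 2.56, 2.01 and 2.60 CPM to 0.064, 0.0511 and 0 CPM (log2 fold change -5.52 ± 0.474, SE, edgeR adjusted p = 2.0e-05). Obox1 and Obox3 were also called lower, and no read of either was found in double KO. Obox1 missed the threshold without double KO replicate 1 or 2 or Obox4 KO replicate 1, and Obox3 without any one of 5 libraries (adjusted p up to 0.0246). Reads that match several copies were discarded by the authors, so these values do not give the whole level of the family.

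Across the transcriptome, 611 of 22328 tested genes fell (2.74% of genes tested) and 366 rose (1.64%) in double KO against Obox4 KO, and 977 passed in all (4.38%). A call needed 2-fold and, in edgeR's quasi-likelihood test with Benjamini-Hochberg adjustment, p up to 0.01. The median log2 fold change of all genes was -0.08. Of the genes that fell, 167 had no read in any double KO library. Calls that held with each of the 6 libraries left out in turn numbered 301 falls and 85 rises. Without Obox4 KO replicate 3 the counts were 1415 falls and 1571 rises, and without double KO replicate 3 they were 509 and 295. With the 6 libraries fitted alone, only 129 falls and 6 rises were called.

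Most of the 2C genes tested fell. Of 78 listed genes, 72 were in the gene table and 63 passed the filter on low counts. Of these 63, 46 fell and 0 rose (percent called over all genes 2.74 and 1.64), and in 53 every double KO library lay below every Obox4 KO library, against 17.7% of all genes tested (13.8% in the other direction). The median fitted log2 fold change of the list was -6.19, or -5.59 with the 23 genes at 0 in double KO set to their lower bound. The filter ran over all 12 libraries, so those 23 genes passed it through other libraries and could not rise. The list was chosen with earlier results of these data known. The count of falls was 46 without Obox4 KO replicate 3, 43 without double KO replicate 3 and 30 with the 6 libraries fitted alone. Of all genes tested, 6.05%, 2.18% and 0.657% fell in these fits, in the same order. Listed genes that were not called included Dppa4, at 47.5, 45.5 and 54.2 CPM in double KO and 49.2, 53.3 and 54.0 in Obox4 KO, and Dppa3, at 2.37, 3.58 and 2.98 against 3.21, 3.56 and 4.36 CPM. Both encode chromatin-associated proteins of the early embryo and germ line.

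The Zscan4 genes encode zinc finger proteins with a SCAN domain. Zscan4d had 86.4, 85.7 and 220 CPM in the Obox4 KO libraries and no read in the double KO libraries, at least 3530-fold lower (edgeR adjusted p = 2.43e-05). Zscan4c had 92.5, 92.1 and 243 CPM and was at least 3850-fold lower (adjusted p = 2.68e-05). In both genes replicate 3 was the highest Obox4 KO library. Zscan4a, Zscan4b, Zscan4e and Zscan4f and 3 Zscan4 pseudogenes likewise had no read in double KO, with lower bounds of 1040-fold in Zscan4b to 3550-fold in Zscan4a. These copies are nearly identical, and the split of reads between them is uncertain.

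Binding sites of DUX were read from the deposited list of 1844 peaks of FLAG-tagged DUX in induced mESCs. The palindrome TGATT, any base, AATCA, searched on both strands in 300 bases around each summit, was in 3.77% of the 1802 peaks on chromosomes 1 to 19, X and Y and in 14.5% of 62 peaks at the starts of genes that fell, with 1 chromosome left out of this count. Of the 9 matches among these 62, 7 were at near-identical Zscan4 genes, and without peaks at Zscan4 genes the share was 3.77% of 53, the same as over all peaks. It was in 0.0335% of 32851 RefSeq promoters of the same length (GRCm38). The Zscan4 windows below are shown because the same 11 bases recur in several copies of Zscan4 that lost all reads. Of 9 peaks at Zscan4 genes 7 held a match. None was found for Zscan4a or Zscan4c, which also lost all reads. The Usp17le window is shown beside the Zscan4 windows. Its palindrome has another middle base, and this gene kept a few reads in double KO. Each window runs 5′ to 3′ on the strand of its gene, with the palindrome in capitals and 25 bases on each side.
Zscan4b: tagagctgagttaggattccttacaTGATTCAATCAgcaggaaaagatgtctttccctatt
Zscan4d: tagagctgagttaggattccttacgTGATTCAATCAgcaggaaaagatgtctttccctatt
Zscan4f: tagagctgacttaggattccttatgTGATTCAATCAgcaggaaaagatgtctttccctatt
Usp17le: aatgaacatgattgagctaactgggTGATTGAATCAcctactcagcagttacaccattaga
They lie at chr7:10905323-10905383 (minus strand), chr7:11166455-11166515 (minus strand), chr7:11397581-11397641 (plus strand) and chr7:104776165-104776225 (minus strand) in GRCm38. The palindrome was 303, 326 and 304 bases upstream of the annotated start in Zscan4b, Zscan4d and Zscan4f, and it lay inside the gene in Usp17le (position -1275 on the same scale). A match describes the letters and does not show binding in these cells.

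The Usp17l genes, which encode deubiquitinases, behaved alike. Usp17le had 126, 125 and 155 CPM in Obox4 KO and 0.192, 0.102 and 0 CPM in double KO (log2 fold change -10.07 ± 0.341, SE, edgeR adjusted p = 1.15e-08). Usp17la fell from 47.2, 44.7 and 70.1 CPM to 0.640, 0.562 and 0.186 CPM. Usp17lb, Usp17lc and Usp17ld were also called lower. Tmem92, a gene with a transmembrane domain, fell from 46.3, 47.0 and 91.2 CPM to 0.384, 0.664 and 0.186 CPM (log2 fold change -7.00 ± 0.370, adjusted p = 3.5e-07). In all of these the groups were separated by far more than the spread within them.

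Other genes of the list kept a measurable level in double KO. Nelfa, a subunit of the negative elongation factor, had 155, 159 and 212 CPM in Obox4 KO and 67.7, 70.4 and 50.6 CPM in double KO (log2 fold change -1.48 ± 0.144, edgeR adjusted p = 4.73e-05). Snai1, a zinc finger repressor known from epithelial to mesenchymal transition, had 29.8, 29.0 and 29.1 against 10.5, 11.2 and 8.94 CPM (-1.51 ± 0.121, adjusted p = 1.2e-05). Dppa2, a partner of Dppa4 upstream of Dux in mESCs, fell by 1.02 ± 0.155 on the log2 scale (adjusted p = 0.00112), and its value was -0.87 without Obox4 KO replicate 3 and -0.85 without double KO replicate 3, short of 2-fold.

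**Figure D1:**
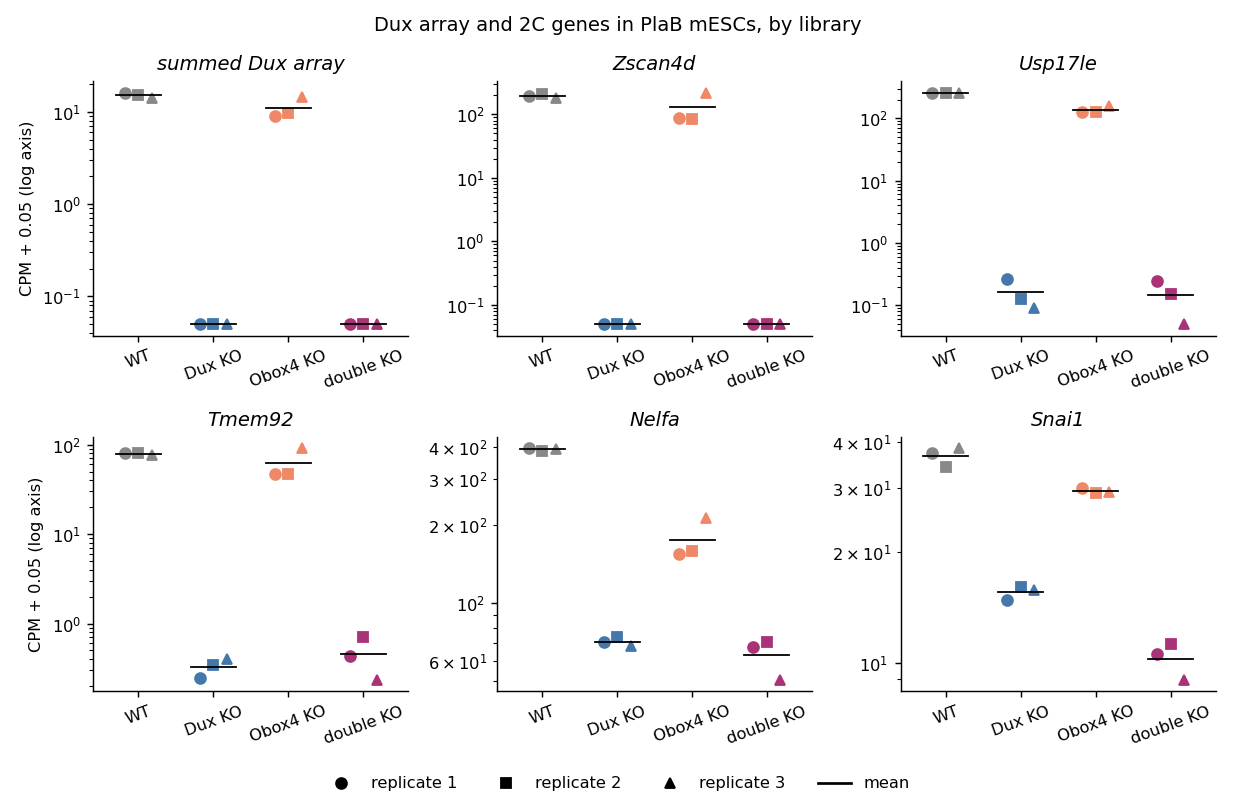
CPM plus 0.05 on log axes (y) in each PlaB library (points, 3 per genotype on x) for the summed Dux array and 5 genes, with the mean of each group as a line. The array and Zscan4d sat at 0 CPM in all Dux KO and double KO libraries, and Nelfa and Snai1 fell to 50.6 to 70.4 and 8.94 to 11.2 CPM in double KO.

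Among repeats, 4 of 1054 tested names fell and 1 rose (0.38% and 0.0949% of names tested, 0.474% in all). The scaling factor of double KO replicate 3 in the repeat table was 0.472, against 0.909 to 1.24 in the other 5 libraries. MERVL-int, the internal part of the MERVL retrovirus summed over 2600 loci, had 20200, 20700 and 45700 CPM in Obox4 KO and 2060, 1960 and 1690 CPM in double KO (log2 fold change -3.92 ± 0.285, SE, edgeR adjusted p = 1.79e-05). MT2_Mm, the MERVL long terminal repeat, had 2980, 3100 and 6050 against 902, 807 and 1450 CPM (-1.95 ± 0.271, adjusted p = 0.00336). In both, replicate 3 was the highest Obox4 KO library and the groups did not overlap. The log2 fold change of MERVL-int was -3.42 without Obox4 KO replicate 3, and its adjusted p was 0.0112 with the 6 libraries fitted alone. MT2_Mm missed the threshold without double KO replicate 1 (adjusted p = 0.0297) or 2 (0.0122).

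RLTR6B_Mm and RLTR30C_MM, long terminal repeats of other retroviral families, also fell. RLTR6B_Mm went from 387, 416 and 1540 CPM to 81.9, 92.1 and 90.7 CPM, and RLTR30C_MM from 27.4, 24.4 and 25.9 to 6.15, 8.57 and 4.74 CPM. Their largest adjusted p with 1 library left out was 0.0396 and 0.034, in each case without double KO replicate 1. The repeat that rose was IAPEy-int, the internal part of an intracisternal A particle family, from 154, 151 and 242 CPM to 719, 447 and 473 CPM (log2 fold change 1.59 ± 0.202, adjusted p = 0.00204). RLTR13B2 was not called, with 358, 369 and 953 CPM in Obox4 KO and 462, 681 and 711 CPM in double KO. With the scaling factors of the gene table, the median over all repeat names lay at -0.58 on the log2 scale, and there were 66 falls and 2 rises, with MERVL-int at -4.41 and IAPEy-int at 1.04.

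**Figure D2:**
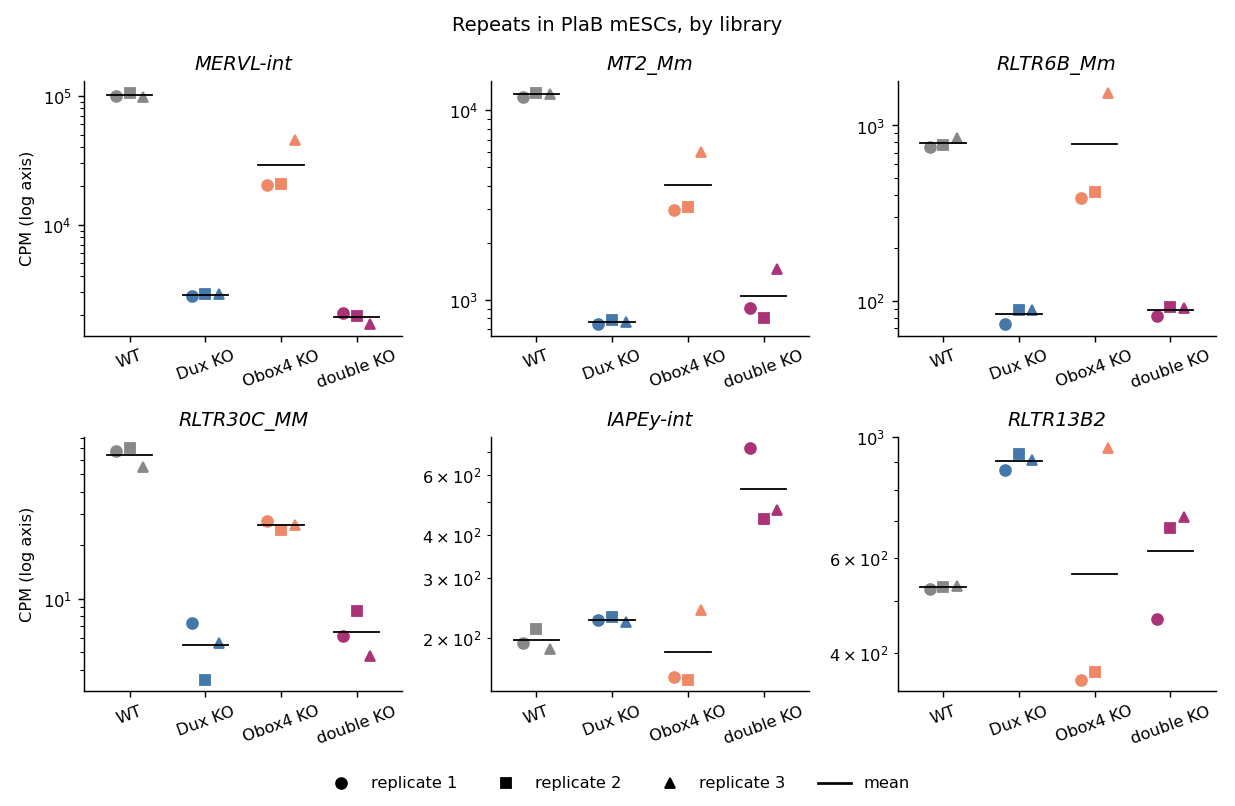
CPM on log axes (y) of 6 repeat names in each PlaB library (points, 3 per genotype on x), with group means as lines. MERVL-int stood at 1690 to 2060 CPM in double KO and at 20200 to 45700 CPM in Obox4 KO, and IAPEy-int was highest in double KO.

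The rises included genes of extraembryonic lineages, and here Obox4 KO replicate 3 mattered most. Of 22 trophectoderm genes tested, 4 rose and 0 fell, with a median log2 fold change of 1.06, where 1.64% of all genes tested rose. Without Obox4 KO replicate 3, 17 rose with a median of 2.05, and 6.72% of all genes tested rose in that fit, and with the 6 libraries fitted alone 1 did. Hand1, a transcription factor of trophoblast and heart, had 7.34, 6.40 and 8.87 CPM in Obox4 KO and 40.4, 35.2 and 35.8 CPM in double KO (log2 fold change 2.30 ± 0.214, edgeR adjusted p = 3.2e-05). Krt8, a keratin of simple epithelia, had 311, 311 and 746 against 1680, 1270 and 1360 CPM (1.66 ± 0.273, adjusted p = 0.00197). Krt19 and Cldn4, another keratin and a tight junction protein, were the other members called. Cldn4 lost its call without double KO replicate 3, and Krt19 without any of 4 libraries (adjusted p up to 0.0317).

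Several well-known trophectoderm genes did not pass with all libraries. Cdx2, a transcription factor that specifies trophectoderm, had 7.29, 8.64 and 62.7 CPM in Obox4 KO and 83.8, 119 and 167 CPM in double KO (adjusted p = 0.0268). Krt18, the partner of Krt8, had 136, 138 and 817 against 1750, 1350 and 1620 CPM (adjusted p = 0.0171). H19, an imprinted noncoding RNA, had 45.8, 47.3 and 3280 against 2100, 2670 and 2350 CPM (adjusted p = 0.499). In Cdx2 and Krt18 the groups did not overlap, and in H19 Obox4 KO replicate 3 was above all double KO libraries. The trophectoderm markers Cdx2, Eomes, Gata3, Krt7, Krt8 and Krt18 summed to 517, 519 and 1790 CPM in Obox4 KO, 2950 to 3740 in double KO, 392 to 401 in Dux KO and 139 to 144 in WT, and no marker was at 0. In Dux KO against WT, 5 of the 22 genes of the list rose and 0 fell, with a median of 0.93. Whether more cells of this kind or more RNA per cell lay behind these sums cannot be told apart in bulk RNA.

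**Figure D3:**
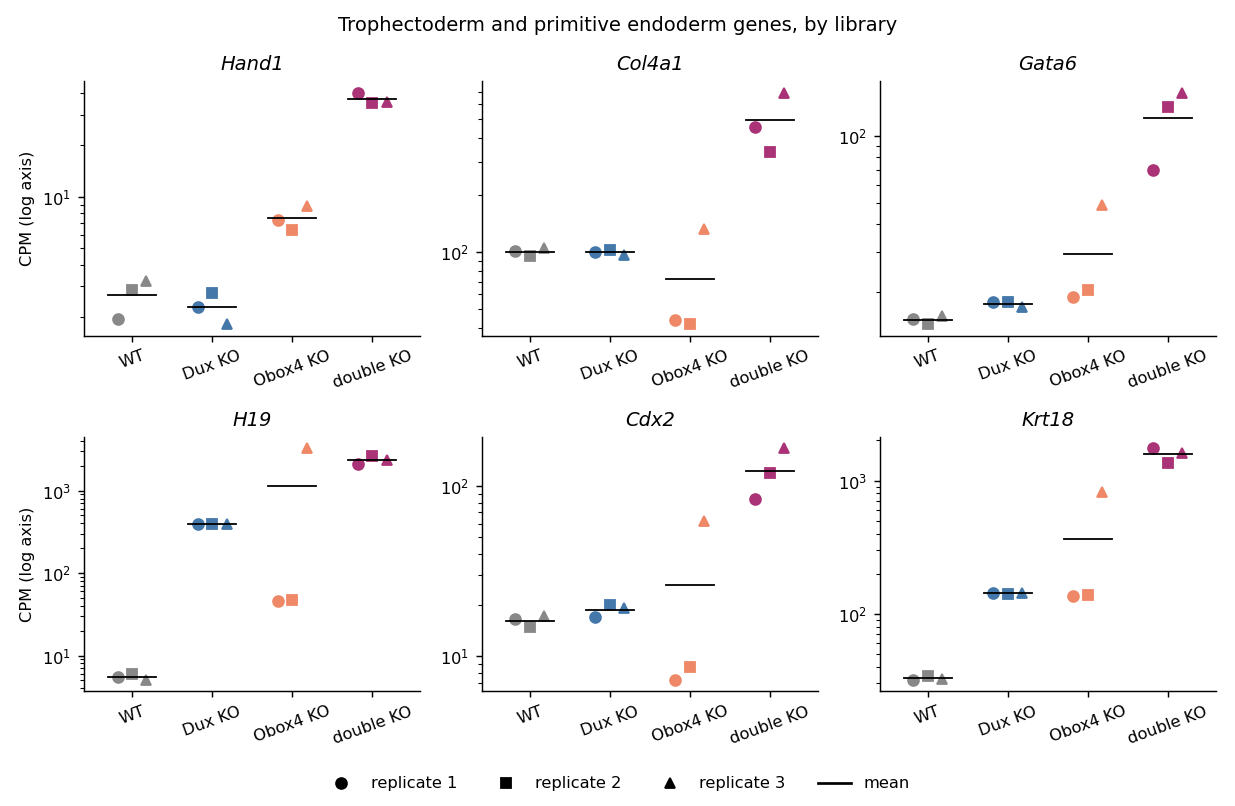
CPM on log axes (y) of 6 trophectoderm and primitive endoderm genes in each PlaB library (points, 3 per genotype on x), with group means as lines. Obox4 KO replicate 3 lay apart from replicates 1 and 2 in H19, Cdx2 and Krt18, whereas Hand1 was at 6.40 to 8.87 CPM in all 3.

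Primitive endoderm genes rose in 5 of 18 tested members and fell in 0, with a median of 0.74, where 1.64% of all genes tested rose. Without Obox4 KO replicate 3, 8 of 19 rose and 1 fell, where 6.72% of all genes tested rose and 6.05% fell. Col4a1 and Col4a2, chains of basement membrane collagen, gave the largest changes. Col4a1 had 44.2, 41.9 and 132 CPM in Obox4 KO and 458, 337 and 692 CPM in double KO (log2 fold change 2.77 ± 0.391, edgeR adjusted p = 0.000687). Gata6, a transcription factor of the lineage, had 29.5 ± 17 CPM (SD, n = 3; highest in replicate 3 at 49.1) against 69.9, 135 and 156 CPM (2.03 ± 0.346, adjusted p = 0.00238). Gata6 missed the threshold without Obox4 KO replicate 1 (adjusted p = 0.011) or 2 (0.0129). Sox17 and Lama1 were also called, and Lama1 only with all libraries or without Obox4 KO replicate 3. Gata4, another factor of the lineage, was not, at 23.2, 23.4 and 6.15 CPM in Obox4 KO and 9.48, 11.4 and 7.26 CPM in double KO. With the 6 libraries fitted alone, 0 of the 18 were called.

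Of 18 actin and adhesion genes, 6 rose and 0 fell, with a median of 0.92, where 1.64% of all genes tested rose. The number of rises was 8 without Obox4 KO replicate 3, 5 without double KO replicate 3, 4 without double KO replicate 2, 2 without Obox4 KO replicate 1, 1 without double KO replicate 1 or Obox4 KO replicate 2, and 0 with the 6 libraries fitted alone. Of all genes tested, 6.72%, 1.27%, 1.42%, 0.483%, 0.765%, 0.481% and 0.0306% rose in these fits, in the order named. The 6 genes of the list that rose with all libraries were Acta1, Acta2, Tpm1, Tpm2, Vcl and Epcam. They encode actins, tropomyosins, vinculin and an epithelial adhesion molecule. Tpm1 had 147, 148 and 175 CPM in Obox4 KO and 437, 285 and 312 CPM in double KO (log2 fold change 1.14 ± 0.145, adjusted p = 0.000332). Each of the 6 lost its call without at least 1 library, and Vcl and Epcam without any of 5. Outside the lists, the rise of Mybpc3, a sarcomere protein, was among the largest, from 10.1, 9.22 and 33.9 CPM to 171, 124 and 185 CPM (3.18 ± 0.408, adjusted p = 0.000357). Lrp2, an endocytic receptor, rose from 190, 176 and 225 CPM to 727, 581 and 502 CPM (1.61 ± 0.135, adjusted p = 1.68e-05). Mybpc3 and Lrp2 held with each library left out in turn.

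Of 23 Hox genes, 3 fell and 0 rose, with a median of -1.13, where 2.74% of all genes tested fell. Hoxd13, the most posterior gene of its cluster, had 12.8, 14.2 and 8.06 CPM in Obox4 KO and 2.11, 3.63 and 1.68 CPM in double KO (log2 fold change -2.19 ± 0.288, edgeR adjusted p = 0.000426). Hoxd11 and Hoxa3 were the others called, and Hoxa3 missed the threshold without any of 4 libraries (adjusted p up to 0.0317). Without Obox4 KO replicate 3, 11 of 25 Hox genes fell, with 6.05% of all genes tested, and with the 6 libraries fitted alone 0 of 21 were called.

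Among 25 pluripotency genes 0 were called at this threshold in edgeR (8 at an unadjusted p under 0.05, 0 in DESeq2), with a median of -0.12, and without Obox4 KO replicate 3 there were 3 rises and 1 fall. In the fit without this library 6.72% of all genes tested rose and 6.05% fell. Nanog, a core factor of the pluripotent state, had 480, 500 and 513 CPM in Obox4 KO and 250, 293 and 255 CPM in double KO, a log2 fold change of -0.90 ± 0.0914 that passed the test (adjusted p = 6.54e-05) without reaching 2-fold. In the interferon response list edgeR called 0 of 19 (9 at an unadjusted p under 0.05, with 1 rise and 3 falls in DESeq2), and without Obox4 KO replicate 3 it called 6 falls and 1 rise among 21. Oasl1, an interferon-induced gene, had 54.2, 54.8 and 0.969 CPM in Obox4 KO and 2.95, 1.30 and 0.372 CPM in double KO, so that replicate 3 lay with the double KO libraries. Plagl1, an imprinted zinc finger gene, was the only one of 26 imprinted genes called, from 176, 180 and 116 CPM to 84.4, 88.6 and 59.2 CPM, with an adjusted p of up to 0.0173 when 1 library was left out. The remaining lists gave few calls, where 1.64% of all genes tested rose and 2.74% fell. Zic2 and Sox3 fell and Grhl2 rose among 16 primed epiblast genes, Mthfd2 and Slc7a3 fell among 23 genes of the integrated stress response, and Hspa1a fell among 13 heat shock genes. Dazl fell among 24 germ line genes, Perp rose among 25 p53 and apoptosis genes, Spi1 rose among 5 blood genes, and Nelfa and Dppa2, which also stand on the 2C list, fell among 32 chromatin repressors. In edgeR 0 members were called among 19 mesoderm and neural, 20 ribosome biogenesis, 24 splicing, 22 hypoxia and glycolysis, 17 cholesterol synthesis, 22 histone, 15 mitochondrial and 9 fibroblast genes, with list medians between -0.44 and 0.33. In each of these 8 lists 2 to 10 members had an unadjusted p under 0.05, and DESeq2 called 1 fall among the mesoderm and neural and 1 rise among the fibroblast genes. Without Obox4 KO replicate 3 the histone list had 6 rises, hypoxia and glycolysis 4 rises and 1 fall, mesoderm and neural 1 rise and 2 falls, fibroblast 1 rise, and the other 4 lists 0 calls. Under the same setting the primed epiblast list had 6 rises and 2 falls, stress response 2 and 5, germ line 1 and 5, imprinted 4 and 2, p53 and apoptosis 4 and 1, chromatin repressors 2 and 1, heat shock 0 and 1, and blood 0 calls. With lists this short, counts of 1 or 2 lie close to the 6.72% and 6.05% of all genes in that fit.

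**Figure D4:**
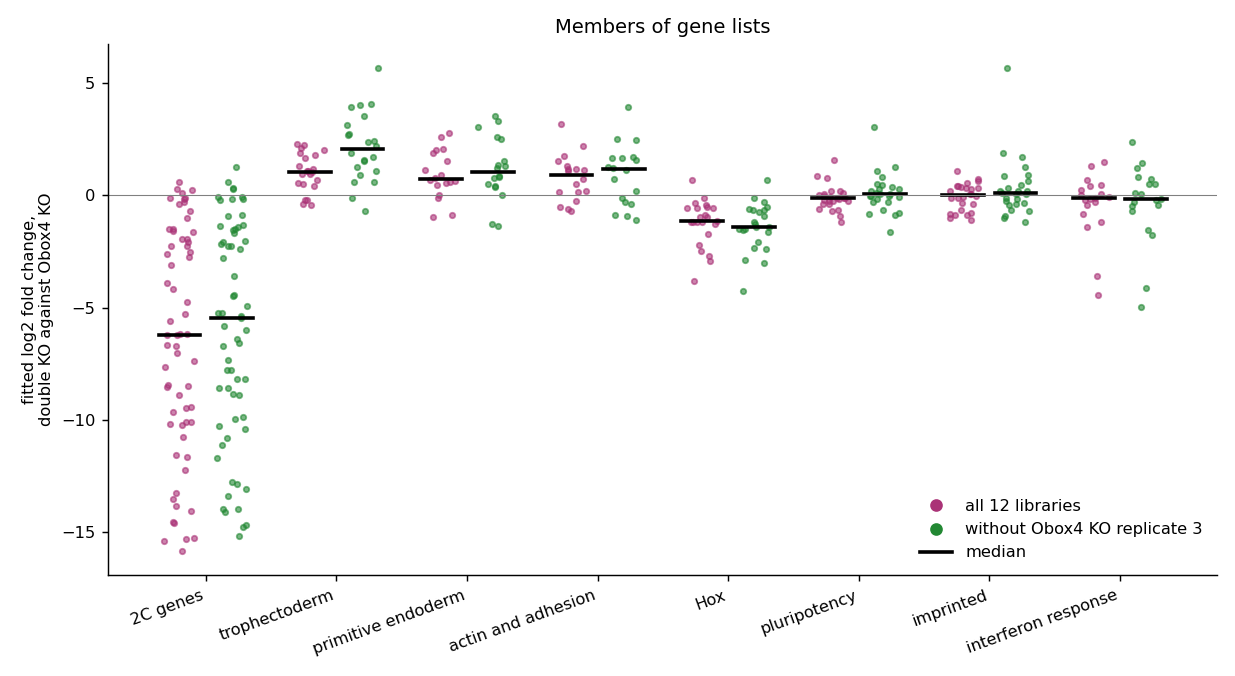
Fitted log2 fold change of double KO against Obox4 KO (y) for each tested member (points) of 8 gene lists (x), with all 12 libraries and without Obox4 KO replicate 3, and the median of the plotted points as a bar. The 2C genes were the only list drawn with a median under -5, fitted values of genes at 0 in double KO are no bounds, and the trophectoderm points moved up when the library was left out.

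The same deletion with Obox4 present is given beside these values, and the comparisons share no library. They also differed over whole chromosomes. The median log2 fold change of chromosome 8 was 0.01 in double KO against Obox4 KO and 0.5 in Dux KO against WT. That of chromosome 6 was -0.12 and 0.22, in the same order. How far such shifts entered the counts below and the interaction was not tested. In Dux KO against WT, 1050 genes fell (4.7% of genes tested) and 362 rose (1.62%), which is 6.32% in all. Of the repeats, 38 fell (3.61%) and 2 rose (0.19%), or 3.8% together. Of the 611 genes that fell in double KO against Obox4 KO, 419 also fell there, 181 were not called and 11 rose. Of the 366 that rose, 53 also rose, 306 were not called and 7 fell. Of the 63 2C genes, 57 fell in Dux KO against WT. MERVL-int had 99900, 106000 and 98300 CPM in WT and a mean of 2840 ± 63.8 (SD, n = 3) in Dux KO, close to the 1910 ± 189 of double KO, so the starting level differed more than the end level.

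The difference between the effects was tested as an interaction, and 325 genes passed at an adjusted p of at most 0.01 (1.46% of genes tested), of which 205 had the higher change on the Obox4 KO background (0.918%) and 120 the lower (0.537%). Of the repeats, 10 passed (0.949%), 9 of them with the higher change (0.854%). Cacna1s, a calcium channel subunit on the 2C list, fell by 2.61 on the log2 scale in double KO and by 7.59 in Dux KO (interaction adjusted p = 0.000391). Hand1 rose by 2.30 in double KO, and its log2 fold change in Dux KO was -0.23 (interaction adjusted p = 0.000785). For MERVL-int the interaction was not called (adjusted p = 0.0797). The count of 325 was 3481 without Obox4 KO replicate 3 867 without double KO replicate 3, and 79 to 211 without any other library.

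DUX peaks were set beside these calls. A DUX peak lay within 3000 bases of the start in 70 of 603 genes that fell (11.6%), in 2 of 366 that rose (0.546%) and in 322 of 22294 tested genes on assembled chromosomes (1.44%). The share was 26.1% of 161 genes that fell to no read. It was 16.3% of the 411 genes that fell on both Obox4 backgrounds and 1.66% of the 181 for which Dux KO against WT was not called. An MT2_Mm copy lay within the same distance of 12.6% of genes that fell and 0.893% of all genes tested.

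OBOX4 peaks, present in at least 2 of 3 lists, lay at 20.7% of genes that fell, 27.9% of genes that rose and 33.7% of all. In Obox4 KO mESCs in PlaB, the promoter mark H3K4me3 lay at 39.0% of genes that fell, 80.6% of genes that rose and 71.7% of all. The Polycomb mark H3K27me3 lay at 37.1%, 62.3% and 28.4%, and H3K27ac, a mark of active promoters and enhancers, at 17.7%, 20.8% and 43.1%. These shares are descriptions without a test, and the levels of the genes differ between the classes.

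**Figure D5:**
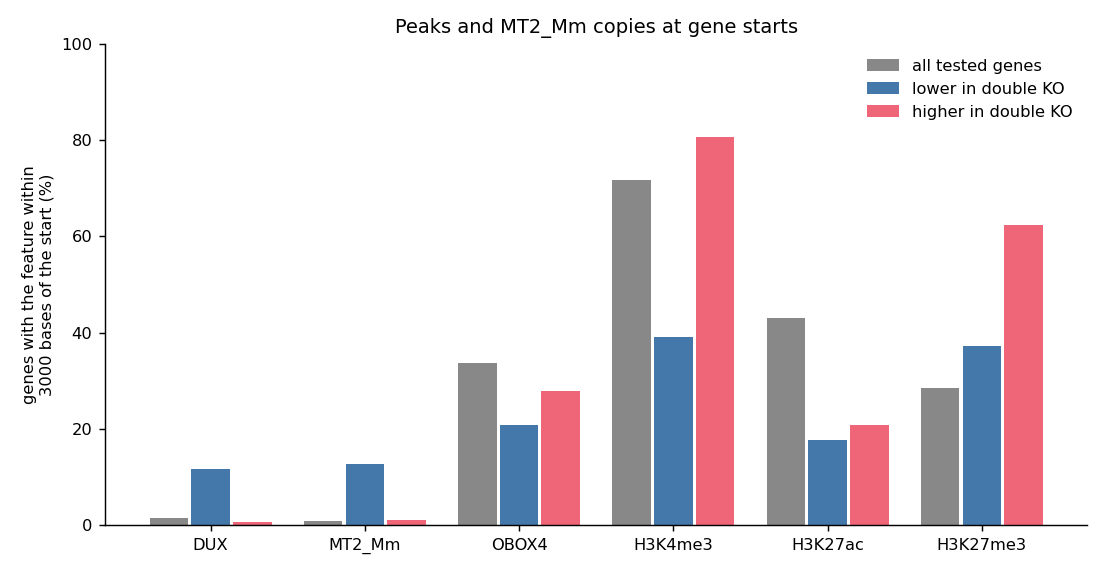
Percent of genes (y) with a peak or an MT2_Mm copy within 3000 bases of the start, for 6 features (x) and for all tested genes, genes lower and genes higher in double KO (bars). DUX and MT2_Mm bars were highest for genes that fell, and the H3K27me3 bar was highest for genes that rose, at 62.3%.

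In 2C embryos, antisense oligonucleotides were used against the same genes, with 2 libraries per group. By the study's methods the double mixture had a higher total oligonucleotide concentration than the Obox4 oligonucleotide alone. Dux knockdown and total dose therefore changed together in the comparison below. Double knockdown against Obox4 knockdown gave 396 falls and 1328 rises (1.72% and 5.75% of 23085 genes tested, 7.47% in all), and 2 falls and 4 rises among repeats (0.189% and 0.378%, 0.568% in all). Of 68 2C genes tested there, 29 fell and 2 rose. Zscan4d fell from 162 and 136 CPM to 24.8 and 28.6 CPM (log2 fold change -2.48 ± 0.148, edgeR adjusted p = 4.91e-09), so reads remained in the embryos. MERVL-int had 248000 and 199000 CPM in Obox4 knockdown and 132000 and 157000 CPM in double knockdown, a difference that was not called (-0.63 ± 0.182, adjusted p = 0.0375). Duxf3, the knocked-down gene, fell from 8.37 and 5.54 CPM to 3.86 and 2.92 CPM.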

How the data were processed

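RNA-seq of PlaB mESCs was taken from deposited tables. The authors trimmed reads with fastp (0.23.2), mapped them to GRCm38.p6 by STAR (2.7.9a) and used featureCounts (2.0.1) for counting. The deposited gene values are counts without multi-mapping reads, and the deposited repeat values are expected counts in which such reads are split into fractions and the loci of a name are summed. Of counts from 2 to 20, 85.9% were even, as when both mates of a pair are counted. CUT&RUN reads were aligned by the authors with Bowtie2 (2.4.1), and peaks were called with MACS3 (3.0.0a6). The deposited peak columns hold a fold enrichment (ratio) and −log10 p and q values, and positions and summits were used here. Whether the DUX list pools replicates is not given in the sources used here.

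Repeat values were rounded. The gene table and the repeat table each had a fit of their own in edgeR (4.0.16, R 4.3.3), with its low-count filter, TMM scaling and a quasi-likelihood model over all 12 PlaB libraries (10 for embryos). Calls needed an adjusted p of at most 0.01 and a 2-fold change, and interactions the adjusted p alone. CPM use TMM-scaled library sizes. Depth limits precision most in double KO replicate 3. A fold against 0 uses a floor of 3 counts over the group. Where both mates of a pair are counted, 3 counts stand for fewer read pairs, so these bounds can be too high. The floor also leaves out the spread between libraries. Values after ± are SDs between libraries for CPM. For log2 fold changes they are SEs worked out from the log2 fold change and the F statistic of its test. The spread between libraries enters through that statistic. Where a group has few or no reads, these SEs can be too small. Alternatives were DESeq2 (1.42.0), RLE scaling, no filter, other thresholds, a replicate block, libraries left out, and gene-table scaling for repeats. The fit was tested on simulated data.

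Named genes were the Dux and Obox genes, the 12 largest rises and falls (mean count of at least 20, groups not overlapping, no clone names), the 8 called genes each way with the highest CPM, called members of 25 lists (otherwise the 3 with the smallest p), genes the study names, called repeats (up to 6 each way) with MERVL and selected long terminal repeats, and the genes with the 6 smallest interaction p. Members of lists that stand beside them were named after their values were seen. The comparison and the lists were chosen with earlier results of these data known. Sequences at DUX peaks of fallen genes were not read on chromosome 18. Symbols were found for 55141 of 55487 gene IDs.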

Additional observations from a re-analysis of the deposited data

Results flagged for a closer look

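For 14 named genes the effect of the Dux deletion differed between the Obox4 KO and the WT background by the interaction test (edgeR, adjusted p of at most 0.01), and the values below are the difference of the log2 fold changes, double KO against Obox4 KO minus Dux KO against WT. The difference was positive for Cacna1s (4.99), Serpinb6b (4.92), Lama1 (2.74), Hand1 (2.53), Ablim1 (2.39), Trim43a (2.16), Vcl (1.87) and Hk2 (0.73). It was negative for Plagl1 (-4.02), Mir124a-1hg (-2.69), Lzts1 (-2.61), Mest (-2.07), Dis3l (-1.74) and Tubb3 (-1.28). Cacna1s and Trim43a fell on both backgrounds. Mest and Mir124a-1hg rose in Dux KO against WT and were not called in double KO against Obox4 KO.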

How the results depend on the processing

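Genes called in double KO against Obox4 KO numbered 977, and 495 to 2986 with 1 library left out. The count was 1893 with DESeq2, 1679 without the low-count filter, 4833 at an adjusted p of 0.05 with no fold minimum, 135 with the 6 libraries fitted alone, 504 with Obox4 KO replicates 1 and 2 summed and 3217 without both replicates 3 (these last 2 chosen after seeing the data). The interaction count of 325 genes was 79 to 3481 with 1 library left out, 1792 with DESeq2, 813 without the filter, 112 with the summed library and 7688 without both replicates 3. Repeats called numbered 5, and 2 to 12 with 1 library left out, 14 with DESeq2, 25 at the looser threshold, 11 without both replicates 3 and 68 with gene-table scaling. With the 6 libraries fitted alone edgeR called 0 repeats, and 102 had an unadjusted p under 0.05 (DESeq2, on all libraries, called 14). Repeats in Dux KO against WT numbered 40, and 81 with gene-table scaling. The interaction count of 10 repeats was 0 to 42 with 1 library left out, 50 with DESeq2, 151 without both replicates 3, 4 with gene-table scaling, and 0 without the filter or with the summed library (224 and 179 at an unadjusted p under 0.05). In embryos, genes called numbered 1724, and 878 to 1436 with 1 library left out, and repeats 6, and 2 to 6. The share of fallen genes with a DUX peak was 11.6%, and 8.96% within 1000 bases. Of 155 named genes and repeats, 64 kept their call in every refit run for them and 0 reversed, with thresholds not varied and gene-table scaling run on repeats alone. The cause of these shifts was not tested.

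Deviations of same-numbered double KO and Obox4 KO libraries correlated at 0.05, 0.07 and 0.1. The highest values with another number were 0.04, 0.07 and -0.08. With 3 libraries per group, these values cannot tell whether same-numbered libraries shared a culture or batch. With a replicate block, 998 genes and 5 repeats were called, and the interaction gave 194 genes and 0 repeats (218 repeats at an unadjusted p under 0.05).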

Other observations

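Near the deletion, 2 genes outside the guides were picked after their values were seen. Gm6494, a gene beyond the deleted interval on chromosome 10, had 15.8, 13.7 and 49.5 CPM in Obox4 KO and 0.128, 0.153 and 0.186 CPM in double KO (log2 fold change -7.44 ± 0.683, edgeR adjusted p = 3.08e-05). Smpdl3a, a phosphodiesterase gene on the other side, had 0.490, 0.580 and 8.00 CPM in Obox4 KO and 11.1, 12.3 and 6.52 CPM in double KO and was not called (adjusted p = 0.119).

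Median changes by chromosome ran from -0.23 (chromosomes 13 and X) to 0.05 (chromosome 19) on the log2 scale in double KO against Obox4 KO. Relative to WT, the median of chromosome 8 was 0.57 in double KO, 0.48 in Obox4 KO and 0.50 in Dux KO. That of chromosome 6 was 0.19, 0.20 and 0.24, and that of X was -0.60, -0.38 and -0.27, in the same order.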
